A study of Mus musculus with 24 samples.

Results

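Gene expression in mouse kidneys 1 week after a ureteral obstruction was reversed was compared with that in kidneys at day 7 of obstruction, the state from which the reversal started. The comparison takes 8 of the 24 libraries of the study, 4 labelled UUO R1W (R1W from here on) and 4 labelled UUO-7 (UUO7), chosen by their labels alone, and all 14785 genes of the deposited table. All animals were male C57/BL6 mice aged 8 to 9 weeks at the start. UUO7 mice had a ureter ligated (unilateral ureteral obstruction, UUO) and were culled 7 days later. R1W mice had the same ligation, a second operation at 7 days that reimplanted the ureter, and 1 further week. Each group held 10 animals, of which 4 were sequenced, and the other groups of the study were sham-operated mice (sham), 2 days of obstruction (UUO2), and 2 and 4 weeks after reversal (R2W and R4W). R1W mice were therefore a week older and had undergone a second operation with no operated control in the labels, so relief of the obstruction, time and the second surgery cannot be told apart.

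Ligation of a ureter dams urine and raises pressure in the tubules. Tubular cells lose the transporters and enzymes of their segment and take on an injured state, some divide, leukocytes enter, and fibroblasts lay down matrix between the tubules. Reimplanting the ureter lets urine drain again, which makes it possible to follow which of these changes recede first.

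Values are FPKM, fragment counts scaled to transcript length and sequencing depth, from poly(A)-selected RNA of the kidney, described as cortical in the study's title. The sequencing depth of the libraries was not stated in the sources used here. The step size of low values implied 26750000 to 29850000 fragments in the UUO7 libraries and 29150000 to 35100000 in the R1W libraries. Summed FPKM was 764629 ± 29996 in UUO7 and 767040 ± 47176 in R1W (SD, n = 4). All measured genes of the mitochondrial genome together took 8.53% ± 0.674 of that sum in R1W and 6.00% ± 0.407 in UUO7 (SD, n = 4). The median Pearson correlation of log2 values was 0.983 within the 2 groups and 0.965 between them. R1W replicates 2 and 3 had the lowest median correlations with their own group, 0.975 and 0.970. R1W replicate 3 was the highest R1W library for 66 of 79 cytosolic ribosomal protein genes. R1W replicate 2 had the highest median gene, 12.5 FPKM against 11.2 in each of the other 3 R1W libraries, and the lowest R1W value for 26 of 28 proximal tubule enzyme genes and 71 of 75 nuclear genes of oxidative phosphorylation. It also had the highest R1W sum of 7 urothelial genes, 72.7 FPKM, where the R1W libraries started at 15.7 and the UUO7 libraries ranged from 34.9 to 53.6. List counts of 5 or more are therefore also given without R1W replicate 2 where it moves them by more than 1.5 times. These are bulk libraries, in which fewer cells of a type and less RNA per cell cannot be told apart.

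Of the 14785 genes, 2145 (14.5%) differed between R1W and UUO7 at an adjusted p under 0.05 in limma's moderated test on log2(FPKM + 1), with Benjamini-Hochberg adjustment over all genes. Of these, 956 (6.47%) were higher in R1W and 1189 (8.04%) were lower. A gene is called below where it passed this test. The shifts were mostly small: 1180 of the 2145 called genes changed by less than 0.5 on the log2 scale, and the median change was 0.55 for the higher genes and -0.42 for the lower ones. The large shifts were mainly upward, with 135 genes higher and 61 lower by at least 1 on the log2 scale. After median-ratio rescaling of the libraries, 1074 genes (7.26%) were higher and 1056 (7.14%) lower, and 1869 genes were called in the same direction on both scales. Leaving out 1 library at a time gave between 1116 calls (without R1W replicate 4) and 2535 (without R1W replicate 3), with 1372 without R1W replicate 1 and 1281 to 1345 without UUO7 replicate 1, 3 or 4. Those called in the same direction in all 8 such fits numbered 885, and a gene marked † at its first mention was called with all libraries but not in every one of these 8 fits. Over all genes, the 4 R1W libraries lay above all 4 UUO7 libraries for 7.78% and below all 4 for 12.6%.

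**Figure D1:**
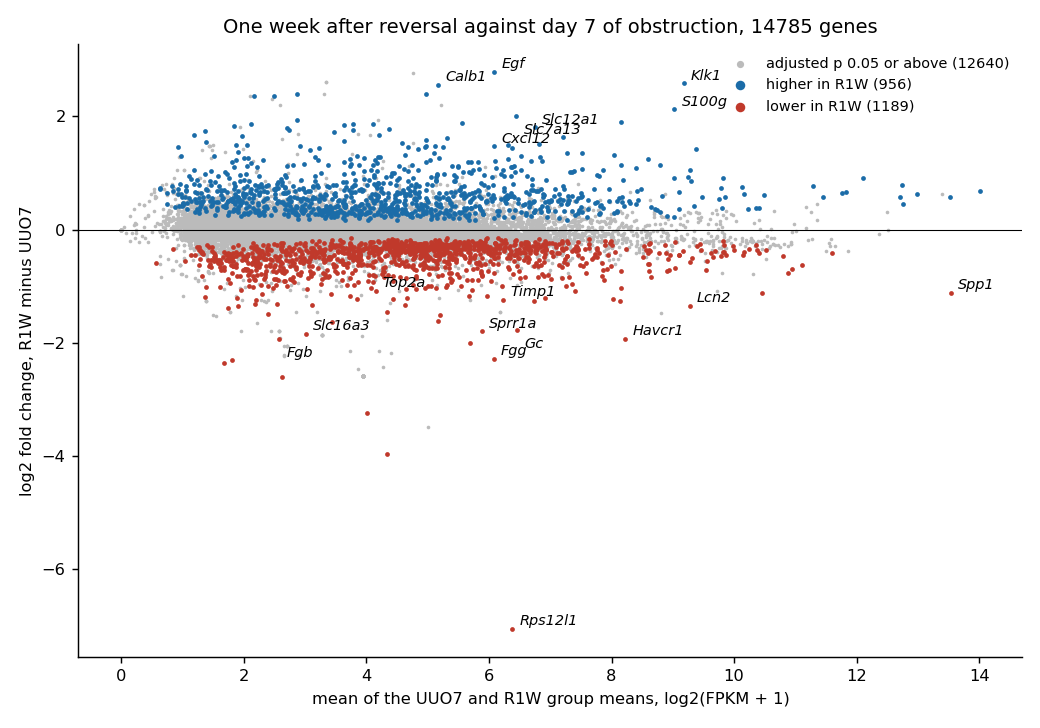
Log2 fold change of R1W over UUO7 (vertical axis, on log2(FPKM + 1)) against the mean level of each gene (horizontal axis) for 14785 genes, with 956 called higher in blue, 1189 called lower in red and the rest in grey. Above a mean of about 20 FPKM the points farthest up are nephron genes such as Egf, Klk1 and Calb1, while Havcr1, Fgg and Gc are among those farthest down, and the lone lowest point is Rps12l1, which is listed at 0 in all R1W libraries.

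Among genes of the naming rule, averaging at least 20 FPKM in the 8 libraries, called on both scales and without overlap of the groups, the 3 with the largest rises were the distal nephron genes Egf, Klk1 and Calb1. Egf, the epidermal growth factor precursor made by the thick ascending limb and early distal tubule (chr3:129677565-129755316, minus strand), read 13.5, 16.1, 14.1 and 17.3 FPKM in UUO7 replicates 1 to 4 and 174, 67.3, 87.5 and 146 FPKM in R1W replicates 1 to 4. Every R1W library lay far above every UUO7 library, and the rise was 2.79 ± 0.40 on the log2 scale (SE, limma adjusted p = 0.000328). Its R1W mean of 119 FPKM was still below the sham mean of 431 FPKM ± 12.3 (SD, n = 4). Calb1, the calcium buffer calbindin of the distal convoluted and connecting tubule (chr4:15881264-15908064, plus strand), read 7.70, 9.30, 8.98 and 10.97 FPKM in UUO7 and 57.4, 43.5, 59.2 and 82.6 FPKM in R1W. The groups did not overlap, and the log2 fold change was 2.56 ± 0.29 (limma adjusted p = 2.41e-05). S100g, the vitamin D-dependent calcium binder of the same segments, read 168, 179, 194 and 228 FPKM in UUO7 and 973, 654, 780 and 982 FPKM in R1W, a rise of 2.12 ± 0.16 with the smallest spread of these 3 genes. Klk1, tissue kallikrein of the connecting tubule, rose from a mean of 158 FPKM ± 20.8 to 1000 FPKM ± 355 (SD, n = 4; log2 fold change 2.58). Reads of Klk1 could be split with its near-identical Klk1b neighbours, so its level is uncertain.

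Genes of the remaining segments past the proximal tubule were among those that rose. In the thick ascending limb list, 9 of 12 measured genes rose and none fell, with a median log2 fold change of 0.72 against -0.02 over all genes. Slc12a1, the sodium-potassium-chloride cotransporter that loop diuretics block, read 37.8, 51.2, 46.8 and 51.3 FPKM in UUO7 and 181, 147, 153 and 184 FPKM in R1W. Its groups were well apart (log2 fold change 1.81 ± 0.29, limma adjusted p = 0.000859), and the R1W mean of 166 FPKM compares with 235 FPKM in sham. Kcnj1, the potassium channel that recycles potassium into the lumen, rose by 0.99 and Bsnd, the chloride channel subunit barttin, by 1.28, both in every leave-one-out fit. Umod†, uromodulin, rose by 0.61, from 1133 FPKM ± 144 to 1726 FPKM ± 163 (SD, n = 4), which is near the sham mean of 1682 FPKM. Of 15 genes of the distal convoluted and connecting tubule, 8 rose and none fell (median 0.59). They included Slc12a3, the thiazide-sensitive cotransporter (0.96), and Wnk1†, Wnk4 and Klhl3† (0.46, 0.55 and 0.68), whose products regulate it. Pvalb, parvalbumin of the early distal convoluted tubule, was listed at 0 in 3 UUO7 libraries and at 0.04 FPKM in the other, and read 4.98, 1.04, 1.45 and 2.65 FPKM in R1W, against a sham mean of 35.1 FPKM.

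Genes of both collecting duct cell types were among those that rose. Among intercalated cell genes, which serve acid and base secretion, 11 of 15 rose and none fell (median 0.79). Slc4a1, the basolateral anion exchanger of the acid-secreting type, read 0.39, 0.60, 0.56 and 0.57 FPKM in UUO7 and 6.89, 3.15, 3.07 and 5.49 FPKM in R1W, with no overlap (log2 fold change 1.83 ± 0.36, limma adjusted p = 0.00313). The proton pump subunits Atp6v1b1, Atp6v0d2, Atp6v1g3 and Atp6v1c2 rose by 0.96, 0.69, 0.79 and 1.05, and the ammonia transporters Rhcg and Rhbg by 1.05 and 1.30. Slc26a4, pendrin of the base-secreting type, rose by 0.87. Among principal cell genes, 6 of 15 rose and none fell (median 0.60). Aqp2†, the vasopressin-regulated water channel, read 77.3, 64.0, 113 and 87.0 FPKM in UUO7 and 231, 280, 142 and 235 FPKM in R1W. The groups did not overlap (log2 fold change 1.36 ± 0.40, limma adjusted p = 0.0267), but the call held in only 2 of the 8 leave-one-out fits. Aqp3, the exit channel on the basolateral side, rose by 1.47 in every fit, and Scnn1a†, a subunit of the epithelial sodium channel, by 0.74, while the change of its partner Scnn1g was 0.19 (limma adjusted p = 0.158). Principal cell genes differed from the other segments in which R1W library led: replicate 2 had the highest list mean there, and the urothelial genes were also highest in that library. Whether this has a part in the result was not tested, and without replicate 2 the count was 5. The principal cell count was 2 without UUO7 replicate 1, 3 without R1W replicate 1, R1W replicate 4 or UUO7 replicate 2, and 4 without UUO7 replicate 4. The thick ascending limb count was 4 without R1W replicate 1 or UUO7 replicate 3 and 5 without UUO7 replicate 1.

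**Figure D2:**
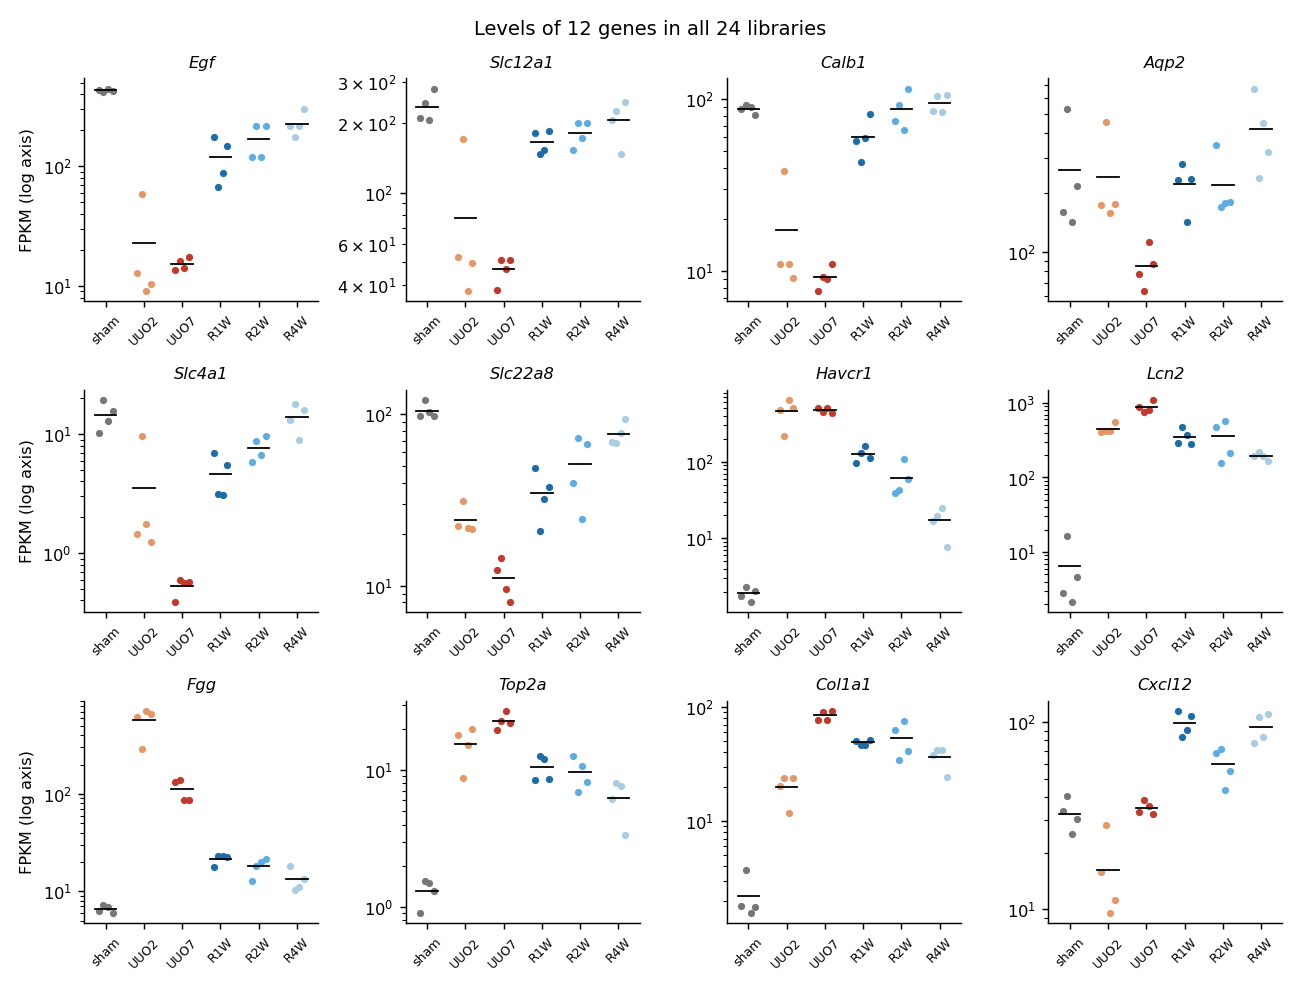
FPKM on log axes of 12 genes in all 24 libraries, 4 points per group with a bar at the group mean. The 6 nephron genes of the first 6 panels are higher in every R1W library than in any UUO7 library and Havcr1, Lcn2, Fgg, Top2a and Col1a1 are lower, while Cxcl12 is higher in R1W than in both UUO7 and sham.

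Proximal tubule genes, which carry out bulk reabsorption, organic ion secretion and much of the metabolism of the cortex, were also among those that rose. Of 28 enzyme genes, 19 rose and 1 fell (median 0.89), and of 28 genes of transport and endocytosis, 14 rose and 1 fell (median 0.58). The largest rise in the transport list was that of Slc7a13. This amino acid transporter of the straight segment read 46.0, 43.6, 20.2 and 26.3 FPKM in UUO7 and 197, 103, 89.4 and 165 FPKM in R1W. The groups did not overlap, and the log2 fold change was 2.00 ± 0.27 (limma adjusted p = 0.000182). The organic anion transporters Slc22a8 and Slc22a6 rose by 1.53 and 0.94, Slc22a7 by 1.44 and Slc22a30 by 1.35. Slc34a1†, the main phosphate cotransporter, read 715, 705, 608 and 575 FPKM in UUO7 and 1371, 823, 962 and 1275 FPKM in R1W, a smaller rise of 0.74 ± 0.21 (limma adjusted p = 0.0229) that was called in 4 of 8 leave-one-out fits. Lrp2†, the endocytic receptor megalin, rose by 0.67 to an R1W mean of 34.6 FPKM, against 113 FPKM in sham.

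Among enzymes of the proximal tubule, Miox, the kidney-enriched inositol oxygenase, read 419, 373, 379 and 254 FPKM in UUO7 and 1301, 621, 865 and 1102 FPKM in R1W (log2 fold change 1.42 ± 0.28, limma adjusted p = 0.00311). For Miox, R1W replicates 1 and 4 were the highest and replicate 2 the lowest, yet all 4 exceeded every UUO7 library. Inmt, a methyltransferase, rose by 1.90, Ces1d, a carboxylesterase, by 1.88, Cyp4b1, a monooxygenase, by 1.31 and Aadat, an enzyme of tryptophan breakdown, by 1.49. Ass1, which makes the arginine precursor argininosuccinate, rose by 1.25 and the gluconeogenic enzymes Fbp1 and G6pc† by 1.05 and 1.06. Ces1d and Nat8f6 (1.62) belong to families of close copies between which reads could be split. The 2 genes that went down were Slc13a1, the sulfate cotransporter, and Gsta2, a glutathione transferase. Slc13a1 read 245, 251, 212 and 209 FPKM in UUO7 and 100, 111, 114 and 105 FPKM in R1W, a fall of 1.08 on the log2 scale to about its sham mean of 95.8 FPKM. Gsta2 went from 241 FPKM ± 42.8 to 139 FPKM ± 7.05 (SD, n = 4; sham 127). The proximal counts depended on single mice: without R1W replicate 1 they were 12 enzyme and 7 transport genes, as they were without R1W replicate 4 or UUO7 replicate 4, the transport count was also 7 without UUO7 replicate 3, and without R1W replicate 2 the counts were 22 and 17.

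Most nephron regulators were not called. Among 20 transcription factors and regulators of the nephron, 3 rose (15%, against 6.47% of all genes) and none fell: Ppargc1a, a coactivator of mitochondrial genes (0.56), Irx1† (0.90) and Tfap2b† (0.53), both distal nephron factors. The count was 1 without R1W replicate 2 or UUO7 replicate 1 or 3. Hnf4a, the main regulator of proximal identity, read 70.4, 69.3, 54.5 and 57.6 FPKM in UUO7 and 87.1, 62.4, 53.1 and 80.2 FPKM in R1W. The groups overlapped, and the difference of 0.15 ± 0.16 was not called (limma adjusted p = 0.585), while the sham mean was 182 FPKM. Kl, the FGF23 coreceptor klotho, rose by 1.12, from 25.3 FPKM ± 3.23 to 56.7 FPKM ± 10.5 (SD, n = 4; sham 124). Cyp27b1, which activates vitamin D, dropped by 0.96, from 11.8 FPKM to 5.46 FPKM (sham 0.89). Of 12 podocyte genes only Cdkn1c was called (8.33% higher, against 6.47% of all genes), while 1 podocyte gene was called lower with a pseudocount of 10, a minimum mean of 10 FPKM, the 8 libraries alone, without the UUO2 libraries or without R1W replicate 3. None of 16 endothelial genes was called by limma (5 of 16 had a positive and 11 a negative change, and at an unadjusted p under 0.05 there were 1 higher and 4 lower). In other fits up to 4 endothelial genes fell: 4 on the 8 libraries alone or without the UUO2 libraries, 3 with a pseudocount of 10 and 2 with a minimum mean of 10 FPKM. After rescaling, 1 rose and none fell.

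**Figure D3:**
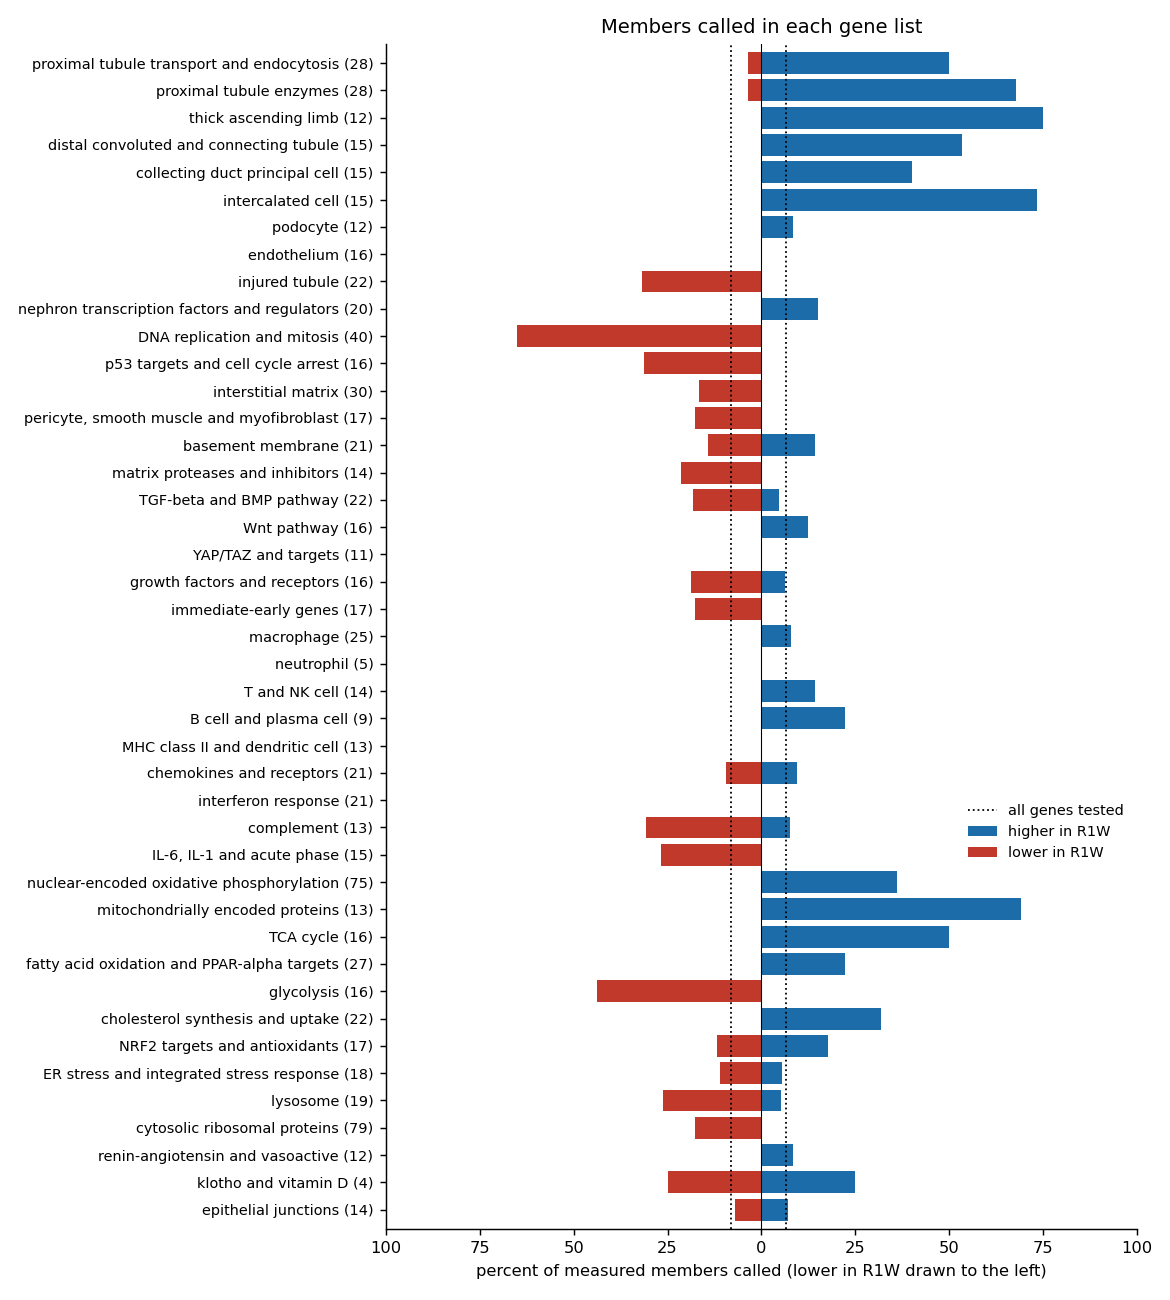
Percent of the measured members of 43 gene lists that were called higher (blue, to the right) or lower (red, to the left) in R1W than in UUO7, with the number of members in brackets. Dotted lines mark the shares over all genes, 6.47% higher and 8.04% lower, and the bars farthest to the right are nephron segments and mitochondrial genes while that farthest to the left is DNA replication and mitosis.

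Part of the injured tubule markers fell. Of 22 such genes, 7 fell and none rose (median -0.58), and all 7 remained several times their sham means. Havcr1, kidney injury molecule 1 (chr11:46735080-46779578, plus strand), read 508, 443, 510 and 429 FPKM in UUO7 and 95.7, 132, 159 and 112 FPKM in R1W. The 4 R1W libraries lay far below, with a log2 fold change of -1.94 ± 0.33 (limma adjusted p = 0.0012), and the sham mean was 1.91 FPKM. Spp1, osteopontin, read 15894, 16448, 17535 and 14637 FPKM in UUO7, making it one of the most abundant transcripts, and 5822, 7648, 10156 and 6665 FPKM in R1W (sham 480). Its fall of 1.12 on the log2 scale was called in every leave-one-out fit. Lcn2†, the iron-trapping protein NGAL, read 888, 748, 807 and 1107 FPKM in UUO7 and 287, 474, 371 and 279 FPKM in R1W (sham 6.43). The groups did not overlap (log2 fold change -1.35 ± 0.40, limma adjusted p = 0.0297), but the call held in 3 of 8 leave-one-out fits. Clu, Krt20, Vcam1† and Cd44† fell by 0.77, 0.85, 0.83 and 0.62. Sox9, a regulator of tubular regeneration, had a change of -0.95 that was not called (limma adjusted p = 0.0979), although its groups did not overlap. The count of 7 was 4 without R1W replicate 1 or 4 or UUO7 replicate 3 or 4, and 11 in a fit on the 8 libraries alone.

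The fibrinogen chains had some of the largest falls. Fgg (chr3:83007724-83015049, plus strand) read 133, 139, 87.3 and 86.4 FPKM in UUO7 and 17.7, 23, 23.3 and 22.6 FPKM in R1W. All R1W libraries were low and close together (log2 fold change -2.29 ± 0.24, limma adjusted p = 6.68e-06). Fga and Fgb, which encode the partner chains, changed by -2.005 and -1.94, and the sham means were 6.63, 12.1 and 0.223 FPKM for Fgg, Fga and Fgb. With the interleukin Il34† (-0.86) they were the 4 of 15 genes of the IL-6, IL-1 and acute phase list that fell, and none rose. After rescaling Il34 was not called (limma adjusted p = 0.056), which left 3. In a fit on the 8 libraries alone 9 of the 15 fell. Gc, the vitamin D-binding protein, read 118, 133, 156 and 132 FPKM in UUO7 and 29.9, 46.8, 44.99 and 34.04 FPKM in R1W (log2 fold change -1.78 ± 0.20, sham 8.54). Among other named genes of the same direction, Sprr1a†, a cornified-envelope precursor, changed by -1.80, Acat3, an acetyl-CoA acetyltransferase, by -1.33, and Tnfrsf12a†, the receptor of TWEAK, by -1.26. Sprr1a was called in only 1 of 8 leave-one-out fits and Tnfrsf12a in 4.

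Genes of DNA replication and mitosis were the list with the largest share of falling genes. Of 40 measured genes, 26 fell and none rose (median -0.56), and all 40 changes were negative. Top2a, the topoisomerase that untangles chromosomes, read 19.7, 23.1, 27.3 and 22.0 FPKM in UUO7 and 8.42, 12.7, 12.1 and 8.65 FPKM in R1W. The groups did not overlap (log2 fold change -1.08 ± 0.24, limma adjusted p = 0.00573), and the R1W mean of 10.5 FPKM compares with 1.31 FPKM in sham. Cdk1, the kinase that drives entry into mitosis, changed by -0.90, Birc5, survivin, by -0.93, Ube2c and Cdc20, parts of the ubiquitin pathway that ends mitosis, by -0.98 and -0.86, and Stmn1, a microtubule regulator, by -0.95. Genes of the replication phase fell too, with Rrm2 at -0.82, Tk1 at -0.86, Mcm5† at -0.53 and Mcm2† at -0.41. Mki67†, the proliferation marker Ki-67, changed by -0.64, from 5.25 FPKM to 3.02 FPKM, and was called in 5 of 8 leave-one-out fits. The count was 15 without R1W replicate 1 and 16 without R1W replicate 4, and 8 where only genes averaging at least 10 FPKM were tested.

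Since these genes moved together, their promoters were searched for the letters of elements known from cell cycle promoters, the CCAAT box and the cell cycle genes homology region (CHR). The letters were CCAAT and TTTGAA, each also as its reverse complement, ATTGG and TTCAAA, which do not overlap one another. Windows were taken around the start site (RefSeq, GRCm38.p6), and only the 250 bases before it were searched. Of the 40 genes, 31 matched, with 34 windows. CCAAT occurred at least once in 76.5% of these windows and in 33.8% of all 32851 windows, and at least 2 times in 44.1% against 10.1%. TTTGAA occurred in 26.5% against 16.0%. A match is a description of the sequence and not a site shown to be bound. The 100 bases before the start site are printed for the 4 called genes that hold at least 2 CCAAT and at least 1 TTTGAA match there, 5′ to 3′ on the strand of the gene, with matches in either orientation in capitals. They lie at chr4:118437344-118437443 (Cdc20, minus strand), chr10:69352913-69353012 (Cdk1, minus strand), chr11:99024190-99024289 (Top2a, minus strand) and chr2:164769829-164769928 (Ube2c, plus strand).
Cdc20: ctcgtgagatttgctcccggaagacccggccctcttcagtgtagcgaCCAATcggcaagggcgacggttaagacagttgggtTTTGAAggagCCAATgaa
Cdk1: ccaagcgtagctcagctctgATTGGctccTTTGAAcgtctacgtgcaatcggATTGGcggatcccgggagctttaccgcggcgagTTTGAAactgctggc
Top2a: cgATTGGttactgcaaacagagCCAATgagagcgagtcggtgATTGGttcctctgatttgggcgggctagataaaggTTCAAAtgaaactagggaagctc
Ube2c: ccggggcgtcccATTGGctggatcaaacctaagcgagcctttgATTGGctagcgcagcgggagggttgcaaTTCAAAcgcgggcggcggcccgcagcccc

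Of 16 p53 target and arrest genes, 5 fell and none rose. Cdkn1a†, the cyclin-dependent kinase inhibitor p21, read 41.5, 36.6, 42.8 and 45.4 FPKM in UUO7 and 15.2, 29.3, 21.6 and 17.4 FPKM in R1W, without overlap (log2 fold change -0.999 ± 0.28, limma adjusted p = 0.0226). Gdf15†, a stress-induced cytokine, changed by -1.52, and Bax†, Sesn2† and Tnfrsf10b by -0.35, -0.43 and -0.52. The count was 1 without UUO7 replicate 1, 2 without R1W replicate 1, R1W replicate 4 or UUO7 replicate 3, and 3 without UUO7 replicate 4.

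Few interstitial matrix genes passed the test. Of 30 genes, 5 fell and none rose, a share of 16.7% against 8.04% of all genes, with a median of -0.28. Col1a1†, the main chain of fibrillar collagen I, read 76.8, 91.1, 76.8 and 92.5 FPKM in UUO7 and 50.3, 46.8, 46.3 and 51.8 FPKM in R1W. The R1W libraries lay below every UUO7 library (log2 fold change -0.77 ± 0.24, limma adjusted p = 0.0369), yet the sham mean was 2.21 FPKM. Sparc†, Loxl1†, Serpinh1† and Col5a1†, all involved in collagen assembly, changed by -0.73, -0.64, -0.53 and -0.52. Col3a1 (-0.53) and Fn1, fibronectin (-0.46), were not called (limma adjusted p = 0.187 and 0.126), although their groups did not overlap. The Col1a1 and Col5a1 calls were lost whichever of the 8 libraries was left out, and the count of 5 then ran from 0 (without UUO7 replicate 4) to 3 (without UUO7 replicate 3), with 2 without R1W replicate 2. In a fit on the 8 libraries alone, without the spread of the other groups, the count was 10, and it was 3 with replicate number as a block or a pseudocount of 0.1. Among 17 pericyte, smooth muscle and myofibroblast genes, Pdgfrb† (-0.63), Cspg4 (-0.56) and Thy1† (-0.999) fell (17.65%, against 8.04% of all genes). Acta2, smooth muscle actin, had a change of -0.56 that was not called (limma adjusted p = 0.276). Without R1W replicate 2 the count of 3 was 1, and in a fit on the 8 libraries alone it was 6.

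Basement membrane genes split by chain. Col4a1 and Col4a2, the chains of the widespread type IV collagen network, fell, and Col4a3, Col4a4 and Col4a5, which form the network of the glomerular and some tubular basement membranes, rose. Col4a1 read 188, 212, 195 and 217 FPKM in UUO7 and 113, 105, 112 and 122 FPKM in R1W (log2 fold change -0.84 ± 0.13, limma adjusted p = 0.000539, sham 31.6), and Col4a2 changed by -0.73. Col4a3 read 8.10, 9.22, 5.05 and 9.99 FPKM in UUO7 and 16.95, 19.9, 9.10 and 15.4 FPKM in R1W, where the lowest R1W library overlapped the UUO7 range (log2 fold change 0.83 ± 0.20, limma adjusted p = 0.00993, sham 30.4). Col4a4 rose by 0.62, to an R1W mean of 20.5 FPKM against 29.95 FPKM in sham. Col4a5 rose by 0.70, from a UUO7 mean of 8.34 FPKM, about its sham mean of 8.30 FPKM, to an R1W mean of 14.6 FPKM. All 5 chains kept their calls in every leave-one-out fit and after rescaling, but in a fit on the 8 libraries alone Col4a3 was not called (limma adjusted p = 0.0604). With Lama5† (-0.58), 3 of 21 basement membrane genes rose (14.3%, against 6.47% of all genes) and 3 fell (14.3%, against 8.04%). The falling count was 2 without R1W replicate 1 or 4 or UUO7 replicate 1, 3 or 4, or with the replicate block. It was 4 without R1W replicate 2 or after rescaling. The podocyte gene Nphs1 changed by 0.17 without a call (limma adjusted p = 0.485).

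**Figure D4:**
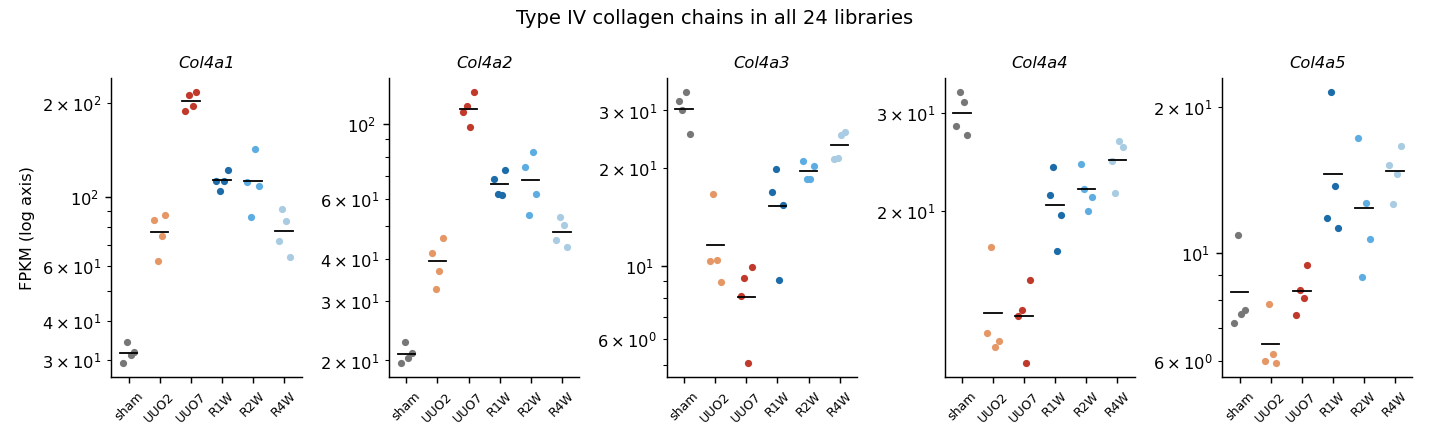
FPKM on log axes of 5 type IV collagen chains in all 24 libraries, 4 points per group with a bar at the group mean. Col4a1 and Col4a2 are lower in the 4 R1W libraries than in the 4 UUO7 libraries, and the means of Col4a3, Col4a4 and Col4a5 are higher.

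Among proteases and inhibitors, Timp1†, an inhibitor of metalloproteinases, changed by -1.25 and Adamts1†, a secreted metalloproteinase, by -0.72, and 3 of 14 genes fell (21.4%, against 8.04% of all genes) and none rose. None of the 3 calls held without R1W replicate 1 or 4 or UUO7 replicate 1, 2 or 3. The count was 1 without R1W replicate 3 or UUO7 replicate 4, with the replicate block or with a pseudocount of 0.1, and 6 in a fit on the 8 libraries alone. Of the transforming growth factor beta family, Tgfb1† read 30.8, 32.4, 29.9 and 33.6 FPKM in UUO7 and 17.4, 19.2, 22.5 and 19.4 FPKM in R1W (log2 fold change -0.67 ± 0.19, limma adjusted p = 0.0258, sham 3.58). Tgfb3†, Inhbb†, a subunit of activin B, and Bmp6 fell by 0.60, 0.73 and 0.79, and Bambi†, a decoy receptor of the pathway, rose by 0.43, so that 4 of 22 genes fell (18.2%, against 8.04% of all genes) and 1 rose (4.55%, against 6.47%). The falling count was 1 without R1W replicate 4 or UUO7 replicate 1 or 4 and 2 with a pseudocount of 0.1, and Bambi was not called without R1W replicate 3 or UUO7 replicate 1 or 4 or with that pseudocount. Of growth factors, the EGF family ligands Areg and Nrg1 changed by -1.22 and -0.92 and Pdgfb†, a mitogen of pericytes, by -0.90. In that list of 16 genes 3 fell (18.75%, against 8.04% of all genes) and 1 rose (6.25%, against 6.47%). The rise was called in 1 of 8 leave-one-out fits. In the Wnt pathway Wnt11† and Lrp6† rose (2 of 16, or 12.5%, against 6.47% of all genes), a count that was 1 whichever of the 8 libraries was left out. None of 11 YAP and TAZ genes was called by limma, with 2 lower at an unadjusted p under 0.05 and 2 called lower in the fit on the 8 libraries alone. The delayed AP-1 member Fosl1 changed by -1.36 (limma adjusted p = 6.68e-06), Myc by -1.22 and Jund† by -0.70, whereas Fos and Egr1 overlapped between the groups and were not called (limma adjusted p = 0.547 and 0.52). In a fit on the 8 libraries alone, 9 of the 17 immediate-early genes fell. With all groups in the fit, 3 fell (17.65%, against 8.04% of all genes).

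Most leukocyte genes were not called. Of 25 macrophage genes, 2 rose and none fell (8.00%, against 6.47% of all genes higher), with a median of -0.01. Adgre1, the macrophage marker F4/80, read 13.4, 18.2, 13.3 and 18.2 FPKM in UUO7 and 14.96, 19.6, 18.1 and 14.0 FPKM in R1W, with full overlap and a sham mean of 0.665 FPKM. The 2 higher genes were Mertk, a receptor for engulfing dead cells (0.54), and Mmp12†, macrophage elastase (0.99), and the count was 1 in 6 of 8 leave-one-out fits, all but those without R1W replicate 1 or UUO7 replicate 2. No gene was called among 13 of antigen presentation by MHC class II, 21 of the interferon response and 5 of neutrophils by limma. At an unadjusted p under 0.05 there were 1, 2 and 0 genes, and after rescaling 1 antigen presentation gene was called. A few lymphocyte genes of low level were higher. Cd8a, of cytotoxic T cells, read 1.01, 2.25, 1.88 and 2.40 FPKM in UUO7 and 3.26, 3.42, 3.49 and 3.41 FPKM in R1W (log2 fold change 0.64 ± 0.14, limma adjusted p = 0.00542), and Cd8b1† rose by 0.49, making 2 of 14 (14.3%, against 6.47% of all genes), or 1 without R1W replicate 1, 2 or 3 or UUO7 replicate 1 or 3. The groups overlapped for Cd8b1, with UUO7 up to 1.89 FPKM and R1W from 1.84 FPKM, and it was not called with the replicate block, a pseudocount of 0.1 or the 8 libraries alone (limma adjusted p = 0.0542, 0.0706 and 0.0846). Jchain and Igkc†, of antibody-secreting cells, rose by 1.15 and 1.04, making 2 of 9 (22.2%), or 1 without R1W replicate 1 or 4 or UUO7 replicate 1, 3 or 4, with the replicate block or with a pseudocount of 10, although reads of Igkc can be shared between immunoglobulin genes.

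Complement genes mostly fell where called, and chemokine genes were called about as often as all genes. C3, the central complement component, read 402, 380, 423 and 375 FPKM in UUO7 and 137, 195, 174 and 155 FPKM in R1W. The R1W values were all far lower (log2 fold change -1.26 ± 0.33, limma adjusted p = 0.0148), with a sham mean of 3.79 FPKM. C2, Cfb and Cfi changed by -0.43, -0.65 and -0.82, and Cd55, which protects cells from complement, by 0.41. So 4 of 13 genes fell (30.8%, against 8.04% of all genes), in every leave-one-out fit, and 1 rose (7.69%, against 6.47%). Of 21 chemokine and receptor genes, Cxcl2†, which draws neutrophils, and Cx3cl1, fractalkine, fell by 0.98 and 0.50, and Cxcl9† and Cxcl12 rose, 9.52% in each direction against 8.04% of all genes lower and 6.47% higher. The falling count was 3 without R1W replicate 3 and 1 in each of the other 7 leave-one-out fits, and the rising count was 1 without R1W replicate 4, UUO7 replicate 3 or UUO7 replicate 4. Ccl2, Cxcl1 and Cxcl10 had changes of -0.45, -1.21 and -0.72 that were not called (limma adjusted p = 0.296, 0.0679 and 0.0773). The groups overlapped for Ccl2, while for Cxcl1 and Cxcl10 every R1W library lay below every UUO7 library. In a fit on the 8 libraries alone or without the UUO2 libraries, 5 genes of the list fell.

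Part of the mitochondrial genes rose. Of 13 protein genes of the mitochondrial genome, 9 rose and none fell (median 0.58). Of 75 nuclear genes of oxidative phosphorylation, 27 rose and none fell (median 0.26), and of 16 genes of the TCA cycle, 8 rose and none fell (median 0.35). Atp5b†, a catalytic subunit of the ATP synthase, read 1163, 1160, 1113 and 1072 FPKM in UUO7 and 1738, 1247, 1264 and 1718 FPKM in R1W, with no overlap and a modest rise of 0.39 ± 0.11 (limma adjusted p = 0.0242). Uqcrfs1, of complex III, rose by 0.60, Ndufs1, of complex I, by 0.58, Cox7a1, of complex IV, by 0.93, and Dld, shared by the pyruvate and 2-oxoglutarate dehydrogenases, by 0.55. For the nuclear genes R1W replicate 2 lay with the UUO7 libraries: its mean over the 75 nuclear genes was 0.04 below that of the UUO7 libraries, and the count was 52 without it, 16 without R1W replicate 1 and 14 without R1W replicate 4 or UUO7 replicate 4. In a fit on the 8 libraries alone it was also 14, and Atp5b was not called (limma adjusted p = 0.0922). After rescaling, 19 of the 75 were called.

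Part of the fuel use genes were called. Of 27 genes of fatty acid oxidation, 6 rose and none fell. Acadm, medium-chain acyl-CoA dehydrogenase, read 201, 215, 233 and 186 FPKM in UUO7 and 515, 269, 411 and 669 FPKM in R1W, without overlap (log2 fold change 1.08 ± 0.23, limma adjusted p = 0.00434). Etfa, Hadh† and Cpt1a† rose by 0.57, 0.50 and 0.36, the last without a call after rescaling (limma adjusted p = 0.0623). Of 16 glycolysis genes, 7 fell and none rose (median -0.22). Slc16a3, the lactate exporter MCT4, read 11.8, 9.97, 9.05 and 15.7 FPKM in UUO7 and 2.77, 2.71, 2.60 and 1.82 FPKM in R1W (log2 fold change -1.84 ± 0.21, limma adjusted p = 2.41e-05, sham 0.42). Pfkp and Pfkl, phosphofructokinases, Slc2a1, the glucose importer GLUT1, and Pkm†, pyruvate kinase, changed by -0.57, -0.54, -0.46 and -0.45. After rescaling, 5 of the 16 were called, and on values as deposited 4 were called without UUO7 replicate 1 or 4. The fatty acid oxidation count was 10 without R1W replicate 2, 2 without R1W replicate 1 or 4 or UUO7 replicate 4, and 3 without UUO7 replicate 1 or 3.

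Cholesterol synthesis genes rose in part, with 7 of 22 higher and none lower. Idi1, Hmgcs1 and Cyp51, enzymes of the pathway, rose by 1.06, 0.89 and 0.87.

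Most stress genes were not called. Of 18 genes of endoplasmic reticulum stress and the integrated stress response, 2 fell (11.1%, against 8.04% of all genes) and 1 rose (5.56%, against 6.47%). Asns, asparagine synthetase, and Trib3, both induced by the integrated stress response, read 23.1, 17.8, 20.4 and 15.3 FPKM and 7.15, 5.22, 5.43 and 4.23 FPKM in UUO7, against 5.97, 8.30, 8.81 and 7.25 FPKM and 1.67, 2.05, 1.77 and 1.38 FPKM in R1W. Both fell clear of the UUO7 range, by 1.23 and 1.25 on the log2 scale, while Herpud1†, of the unfolded protein response, rose by 0.43. Of 17 oxidative stress genes, Hmox1† and Srxn1 fell by 0.83 and 0.68, and Cat†, Sod2 and Prdx3† rose by 0.62, 0.62 and 0.32. These are 11.8% lower and 17.6% higher, against 8.04% and 6.47% of all genes. The rising count was 1 without R1W replicate 1 or 4 or UUO7 replicate 3, and the falling count was 1 without R1W replicate 1, 2 or 4 or UUO7 replicate 1 or 3. Prdx3 was not called in a fit on the 8 libraries alone (limma adjusted p = 0.142). Of 19 lysosome genes, 5 fell (26.3%), led by the protease Ctsd (-0.72), and 1 rose (5.26%), with 3 falling without R1W replicate 1 or 4 or on the 8 libraries alone. Of 79 cytosolic ribosomal protein genes, 14 fell and none rose (17.7%, against 8.04% of all genes), with a median of -0.21 and changes of -0.20 to -0.60 among those called. That count was 42 without R1W replicate 3, 2 to 5 without R1W replicate 1 or 4 or UUO7 replicate 1, 3 or 4, 7 in a fit on the 8 libraries alone and 9 with replicate number as a block.

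**Figure D5:**
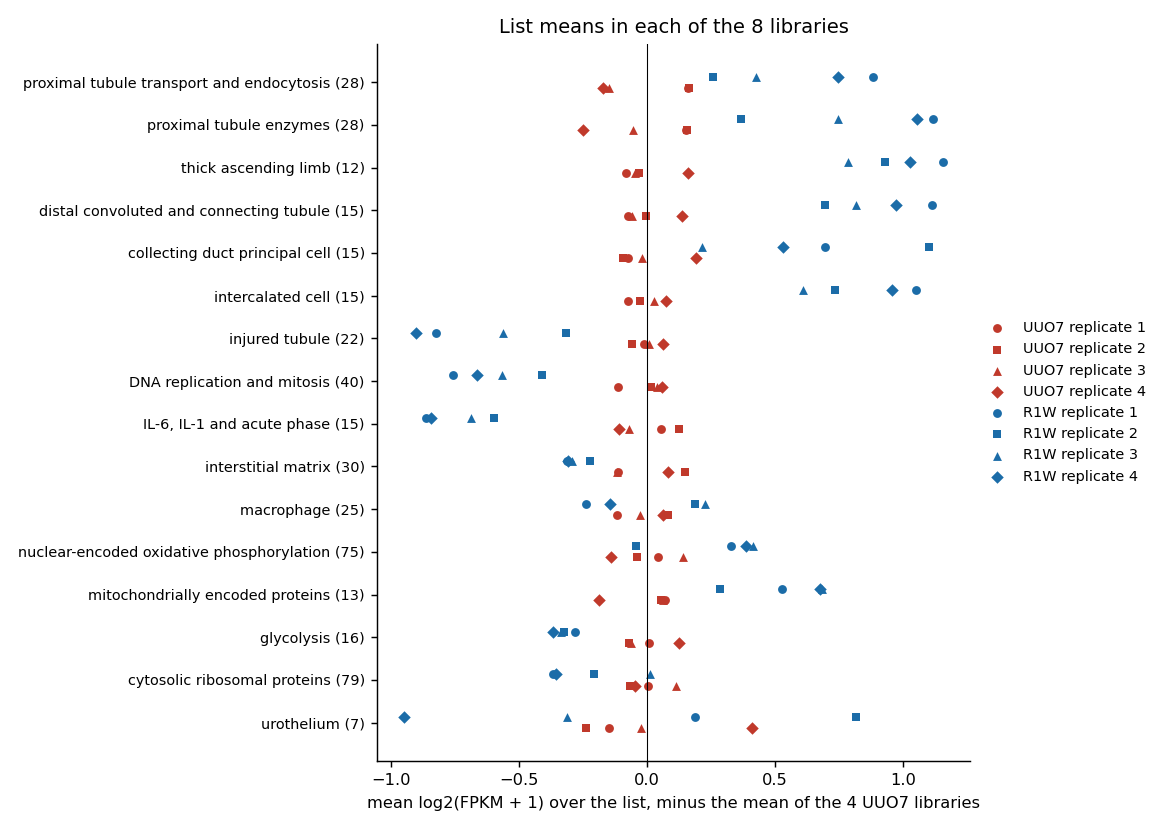
Mean of log2(FPKM + 1) over 16 gene lists in each of the 8 libraries, minus the mean of the 4 UUO7 libraries, with 1 marker shape per replicate. The 4 R1W libraries lie above the UUO7 libraries for the nephron segment lists and below them for injured tubule, mitosis and acute phase lists, R1W replicate 2 (square) is nearest to the UUO7 libraries in the proximal tubule lists, and the urothelial list spreads over both groups.

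In a small set of genes the R1W libraries lay beyond both the UUO7 and the sham libraries. By the rule that every R1W library lay above all UUO7 and sham libraries and that the UUO7 mean was no lower than that of sham, 17 called genes qualified among those averaging 20 FPKM or more in the 8 libraries. The rule itself fixes their order relative to both groups. Cxcl12, a chemokine that retains CXCR4-bearing cells (chr6:117168535-117181367, plus strand), had the largest rise, with 33.1, 38.3, 35.6 and 32.1 FPKM in UUO7 and 115, 82.9, 90.5 and 107 FPKM in R1W. Its R1W mean of 98.9 FPKM compares with a sham mean of 32.4 FPKM ± 6.15 (SD, n = 4), and its mean was 59.7 FPKM in R2W and 94.3 FPKM in R4W. Cdkn1c, the cyclin-dependent kinase inhibitor p57 that podocytes express, read 17.3, 21.5, 25.7 and 23.5 FPKM in UUO7 and 29.7, 44.6, 46.1 and 36.7 FPKM in R1W (sham 8.06). Etnk1†, Cav2†, Olfm4 and Ly6c1 rose by 0.53, 0.51, 0.50 and 0.48. In the other direction only Kmt5a† (-0.29) and Ap2a2 (-0.24) qualified.

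Markers of the labelled tissue were present: Slc34a1 and Aqp2 read at least 64.0 FPKM in all 8 libraries. No member of the lists for urothelium, mesothelium, adipose tissue, skeletal muscle, red blood cells and adrenal gland was called by limma with all libraries. Of their measured genes (7, 2, 8, 1, 5 and 1), 0 had an unadjusted p under 0.05. In other fits 1 adipose gene was called lower (the 8 libraries alone) and 1 skeletal muscle gene higher (without R1W replicate 3). The adipose genes Adipoq and Plin1 read 0 to 0.79 FPKM in the 8 libraries. All 8 adipose genes together summed to 137 to 193 FPKM in UUO7 and 85.8 to 151.5 FPKM in R1W, and 7 of their 8 changes were negative. Red blood cell genes summed to 361 to 494 FPKM in UUO7 and 381 to 723 FPKM in R1W. In the authors' deposited table of their own comparison, 3120 genes had an adjusted p under 0.05, 1494 higher and 1626 lower in R1W, and 1794 of the 2145 genes called here were among them in the same direction.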

How the data were processed

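RNA was measured in 24 kidney libraries, 4 animals in each of 6 groups, of which 8 enter the comparison. Groups and replicate numbers come from the sample titles. The deposited table holds 1 FPKM value per gene and library. Per the file headers its unit is not named, and FPKM was inferred from the values, whose sums differ between libraries and whose low values step by transcript length. No gene in the deposited table averages under 1 FPKM, from which a filter on low expression before deposit is inferred. The submitters' processing notes name mm10, FastQC, RSEM, Bowtie2 and DESeq2 without a role or version, and whether strand was used in counting was not given in the sources used here. The authors' deposited log2 fold changes and adjusted p-values are used only for counts of called and shared genes. Their direction (R1W minus UUO7) was taken from the library values, and how the p-values were adjusted was not stated.

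Values were transformed as log2(FPKM + 1), on which changes of low genes are understated, and fitted with limma 3.58.1 in R 4.3.3 (a coefficient per group, all 24 libraries, empirical Bayes with a trend), with Benjamini-Hochberg adjustment over all 14785 genes and a threshold of 0.05. The fit was tested on simulated data. Count models were not used on FPKM. Rescaling divided each library by the median, over genes above 0 in all libraries, of its ratios to the geometric mean of the gene. A sequencing depth was inferred from the steps of low values in each R1W and UUO7 library, but whole reads were not recovered for all genes. Tables and figures were made with Python 3.11.15, pandas 2.3.3, scipy 1.17.1 and matplotlib 3.10.9. Coordinates are those of the deposited table. Of its genes, 14775 were found by identifier in GENCODE M21 (GRCm38), and 92.6% of these had the same start and end.

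Members and gene lists were chosen with earlier results of these data known, so lists have counts and medians but no p. Genes were named by a rule of 3 parts. The first part took the 12 highest and 12 lowest changes among genes averaging 20 FPKM or more across R1W and UUO7, called on both scales without overlap of the groups. The second took in each list the first 3 members and up to 3 called members of largest change, with others given by value. The third took up to 6 genes in each direction whose R1W libraries lay beyond both UUO7 and sham. Mitochondrially encoded, ribosomal protein, immunoglobulin and clone-named genes were left out of the first and last of these sets. Some genes that the rule names are not reported here. Alternatives were the scaling, the pseudocount, a minimum of 10 FPKM, the libraries in the fit, robust variance, replicate number as a block, stricter thresholds and leaving out each replicate. The block and the leave-one-out fits on rescaled values were added after seeing the data. Replicates are separate mice by their titles. One R4W library carries conflicting group labels, R4W in its title and R2W in its treatment, and was kept in R4W. It bears here on the shared spread, on the printed R2W and R4W means of Cxcl12 and on the figures of all 24 libraries.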

Additional observations from a re-analysis of the deposited data

Results flagged for a closer look

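In a group of 4 libraries, a value was picked out when its gap to the nearest other library exceeded 0.829 of the range of the group (Dixon's limit). Chance alone picks out about 1 in 20 groups, so that 17.3 of the 346 checks would be found, and 18 were. None of the causes was tested.

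In UUO7, replicate 3 read 26.8 FPKM for Cox7a1 (others 21.3 to 21.8), 41.6 for Rhcg (30.5 to 31.6), 266 for Stmn1 (192 to 203) and 57.0 for Wnk4 (49.4 to 50.4). UUO7 replicate 4 read 34.6 FPKM for Gdf15 (57.3 to 62.0), 11.2 for Nat8f6 (19.7 to 21.3), 344 for Pkm (256 to 268) and 127 for Uqcrfs1 (148 to 152), and its scaling factor was 1.18 (1.12 to 1.13). UUO7 replicate 1 read 0.04 FPKM for Pvalb, which the others list at 0. UUO7 replicate 2 read 11.2 FPKM for Fos (8.40 to 8.64).

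In R1W, replicate 2 read 34.6 FPKM for Cav2 (others 21.9 to 22.98), 41.8 for Sod2 (59.2 to 61.7) and 19.5 for Tk1 (15.5 to 16.2), and its median gene was at 12.5 FPKM (11.2 in each of the others). R1W replicate 1 read 17.7 FPKM for Fgg (22.6 to 23.3) and 96.9 for Nat8f6 (43.6 to 50.7), and R1W replicate 4 read 134 for Ly6c1 (148 to 150.4).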

How the results depend on the processing

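Rescaling, pseudocounts of 0.1 and 10, the 10 FPKM minimum, fits on the 8 libraries or without UUO2, robust variance and moving the R4W library with conflicting labels to R2W kept the counts of higher and lower genes within 1.5 times of those reported. An adjusted p under 0.01 in limma left 687 genes (355 higher, 332 lower), and an adjusted p under 0.05 with a change of at least 1 on the log2 scale left 196 (135 and 61). Leaving out 1 library gave 1116 to 2535 calls, 536 to 1106 of them higher and 580 to 1429 lower. On rescaled values, an alternative chosen after seeing the data, the ranges were 1088 to 2437, 510 to 1198 and 533 to 1239. Fits without a library also have fewer samples. Beyond that, the cause was not tested. Of the named genes called as reported, 94 of 155 kept their call in all 16 settings run for single genes, 57 lost it in at least 1 leave-one-out fit, 29 in at least 1 other setting (15 with a pseudocount of 0.1, 12 with the replicate block), and none reversed. Adgre1, not called at 0.08, ranged from -0.00212 (without R1W replicate 2) to 0.151 (without R1W replicate 4).

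Whether replicate numbers pair the libraries could not be decided from 4 pairs. The deviations of same-numbered libraries from their group means correlated across genes at 0.133, 0.0861, 0.451 and -0.0769, and 2 of the 4 R1W libraries correlated best with their own number. With the replicate block, 1945 genes were called (889 higher, 1056 lower), and 1851 (906 and 945) with the block on rescaled values, also chosen after seeing the data. Low genes such as Pvalb and Slc4a1 rest on few fragments, and the number of mice, 4 per group, limits the precision of every value.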

Other observations

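Genes of the circadian clock and its output lay outside the lists of the report, and part of them were called. The clock is a feedback loop in which activators such as Clock and Arntl drive repressors of the Per and Cry families, and in the kidney its output genes follow the time of day. These 18 genes were chosen after their values were seen. Their leave-one-out calls are not reported, so a missing † carries no meaning for them. In limma's fit over all genes, 8 of them rose, 3 fell and 7 were not called, against 6.47% of all genes higher and 8.04% lower. Dbp, an output factor, read 42.2, 40.02, 54.5 and 25.8 FPKM in UUO7 and 122.6, 100.6, 74.0 and 79.1 FPKM in R1W. The groups did not overlap (log2 fold change 1.21, limma adjusted p = 0.0054), and the sham mean was 88.3 FPKM. The related factors Tef and Hlf rose by 0.85 and 0.97, Usp2 by 1.00, Ciart by 0.86, Per3 by 0.75, and the repressors Nr1d1 and Nr1d2 by 0.53 and 0.67. Nfil3, which opposes Dbp at the same sites, changed by -0.80, Bhlhe40 by -0.59 and Npas2 by -0.54. Arntl, Clock, Cry1, Cry2, Per1, Per2 and Bhlhe41 were not called, although Per2 was after rescaling (limma adjusted p = 0.0492). R1W replicates 1 and 2 stood above replicates 3 and 4 for several of these genes: Per3 read 14.2, 14.5, 6.56 and 8.14 FPKM in R1W, Per2 5.73, 5.06, 1.88 and 2.81 FPKM and Cry2 7.15, 7.64, 4.44 and 4.75 FPKM. The time of day at which the mice were culled was not given in the sources used here, and its part in these differences was not tested.

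Retnla, a secreted protein of alternatively activated macrophages, read 2.75, 5.00, 11.8 and 7.18 FPKM in UUO7 and 21.1, 25.9, 39.3 and 16.7 FPKM in R1W. Its sham libraries read 0.06, 0.07, 0.07 and 2.76 FPKM, so it was higher at 1 week of reversal than in both. Mfap5, a microfibril protein of fibroblasts, read 6.71, 9.89, 12.8 and 8.76 FPKM in UUO7 and 16.5, 27.0, 30.5 and 21.1 FPKM in R1W, again without overlap. Both genes were singled out after their values were seen.

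Rps12l1, a near copy of the ribosomal protein gene Rps12, read 139.5, 69.96, 360.3 and 86.2 FPKM in UUO7 and was listed at 0 in all sham, UUO2 and R1W libraries, at 19.2 FPKM in 1 R4W library and at 0.77 FPKM in 1 R2W library. Rps12 read 54.2, 58.3, 70.2 and 52.3 FPKM in UUO7 and 37.9, 47.0, 73.2 and 33.2 FPKM in R1W. How reads were assigned between the copies was not tested, and the level of Rps12l1 is uncertain.

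By the annotated gene type, 27 of 351 long intergenic noncoding RNA genes rose (7.69%, against 6.47% of all genes) and 11 fell (3.13%, against 8.04%). Of 314 antisense genes, 24 rose (7.64%) and 6 fell (1.91%), and whether strand was used in counting them was not given in the sources used here. Of 231 processed pseudogenes, 6 rose (2.6%) and 23 fell (9.96%).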
